A study of Homo sapiens with 24 samples.

Results

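Expression of 9 genes was followed on 24 Clariom D arrays, of 25161 gene symbols in the table. BRD2, BRD3 and BRDT encode BET proteins, CDK9, CCNT1 and CCNT2 encode subunits of the elongation kinase P-TEFb, and HEXIM1, HEXIM2 and LARP7 encode proteins of the particle that keeps this kinase inactive. The genes were taken by symbol, and each had 1 row in the table. SU-DHL-4, an established diffuse large B-cell lymphoma (DLBCL) line, and DG-75, an established Burkitt lymphoma (BL) line, were kept for 72 h with DMSO as the solvent control, 1 µM Entospletinib (Ento), 0.01 µM AZD5153 (AZD), or the pair of them (Ento+AZD). The kinase SYK is inhibited by Ento, and AZD is a bivalent BET inhibitor. Each of the 8 groups held 3 arrays, numbered 1 to 3 in the labels, which do not say whether the numbers stand for separate cultures. The study's methods speak of biologically independent samples for its statistics in general, without naming the arrays. P-values therefore measure the spread between these arrays, which may be technical, and each lymphoma type was represented by a single line.

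BET proteins carry paired bromodomains that read acetylated lysines on histones, and they help to bring P-TEFb to active genes. P-TEFb joins the kinase CDK9 to a T-type cyclin, either cyclin T1 or cyclin T2. It phosphorylates RNA polymerase II and the factors that hold the polymerase paused near the start of a gene. A large share of P-TEFb in a cell is bound by the 7SK small nuclear RNA. In that particle LARP7 protects the RNA, and HEXIM1 or HEXIM2 blocks the kinase. BET inhibitors are known to release P-TEFb from the particle, and HEXIM1 transcript is widely used as a marker of their action. BRDT is normally confined to the testis, whereas the other genes are broadly expressed.

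HEXIM1 had the largest AZD effect of the 9 genes in DG-75 and averaged over both lines, but not in SU-DHL-4. The sequences upstream of HEXIM1 and of HEXIM2, its paralog and neighbour on chromosome 17, are shown first. Each is the 250 bases before the RefSeq transcript start in build GRCh38.p14 on the plus strand, at chr17:45148225-45148474 for HEXIM1 and at chr17:45161625-45161874 for the downstream of the 2 starts listed for HEXIM2. Capitals mark matches, on either strand, to the TATA box TATAAA, the NF-Y site CCAAT, the GC box GGGCGG, the E-box CACGTG or the NRF1 core GCATGCGC.
HEXIM1: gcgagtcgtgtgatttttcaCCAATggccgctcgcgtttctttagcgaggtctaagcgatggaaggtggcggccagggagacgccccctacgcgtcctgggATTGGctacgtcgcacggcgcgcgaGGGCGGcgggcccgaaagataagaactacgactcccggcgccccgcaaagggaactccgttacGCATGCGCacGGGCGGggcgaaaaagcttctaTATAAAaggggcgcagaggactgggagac
HEXIM2: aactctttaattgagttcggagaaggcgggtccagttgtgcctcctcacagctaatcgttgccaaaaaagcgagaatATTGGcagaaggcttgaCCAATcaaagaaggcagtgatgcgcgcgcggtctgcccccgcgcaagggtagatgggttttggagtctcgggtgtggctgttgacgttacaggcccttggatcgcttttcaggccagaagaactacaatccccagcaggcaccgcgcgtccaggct

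The HEXIM1 window held 1 TATAAA, 2 CCAAT, 2 GGGCGG and 1 GCATGCGC match. The HEXIM2 window held 2 CCAAT matches and none of the other motifs, and the window of the other HEXIM2 start held none of the 5 motifs. Among 35116 upstream windows of the same length, 10.7% held TATAAA, 32% held CCAAT, 42.6% held GGGCGG, 6.34% held CACGTG and 2.63% held GCATGCGC. These matches describe the letters and do not show that a factor binds. The antisense transcript HEXIM2-AS1 is annotated between both genes, and the sources used here do not state whether the HEXIM2 probes exclude it, so that the HEXIM2 values carry this uncertainty.

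The 24 arrays had medians between 4.89 and 5.14 on the log2 scale. Replicate arrays correlated at 0.981 to 0.992 across rows, and the median SD of a row within a group was 0.177 to 0.223. Among the defining markers, the B-cell genes CD79A (11.21 to 12.43) and PAX5 (7.90 to 8.88) and the germinal centre gene BCL6 (11.04 to 11.99) were high in both lines. MS4A1, which encodes the B-cell antigen CD20, was at 11.27 to 11.83 in SU-DHL-4 and lower on the DG-75 arrays, with a median of 7.47. The mean level of the T-cell markers lay between 2.49 and 3.04, of the myeloid markers between 4.10 and 4.73, of the plasma cell markers between 3.92 and 5.04 and of the epithelial markers between 4.21 and 4.85. Below, a gene passed where its adjusted p was under 0.05, and it was called where it also changed more than 2-fold. Changes are log2 differences from limma with Benjamini-Hochberg adjustment over all 25575 rows, and SE is the standard error. None of the 9 genes was called in any of 24 comparisons, whereas 8.54% of all rows were called at least once. Of the 216 values of the 9 genes in these comparisons 10 passed, beside 2.79% of the values of all rows. Most of the 10 were HEXIM1 in comparisons that share arrays, and the rest were single values of HEXIM2, BRD2 and CDK9.

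**Figure D1:**
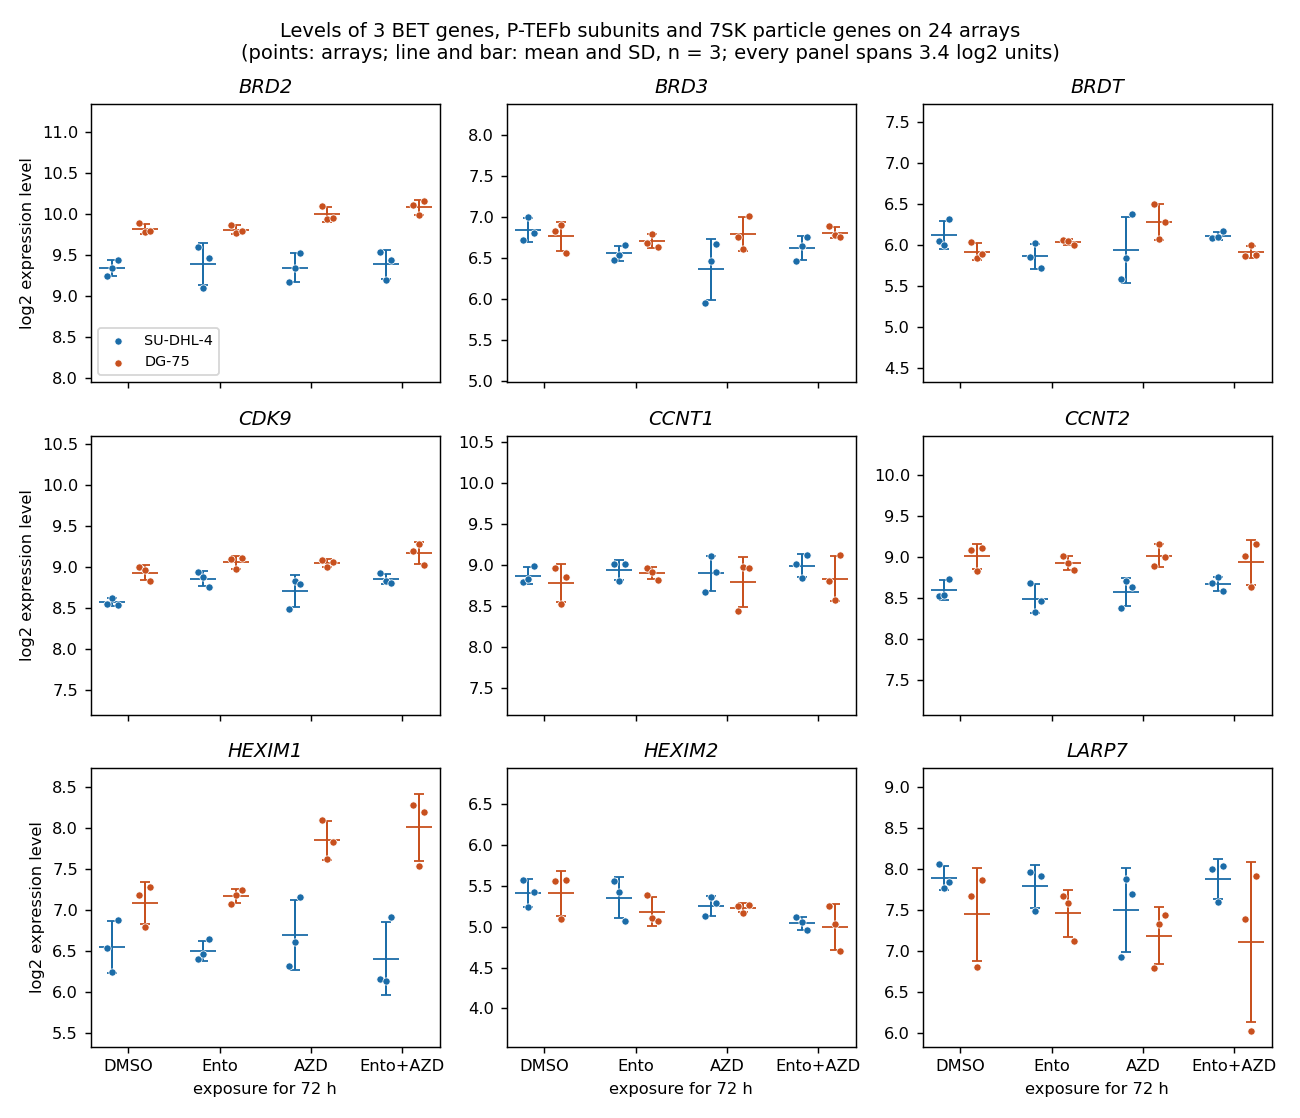
Log2 expression levels (y axis) of the 9 genes in the 8 groups (x axis, treatment), with SU-DHL-4 in blue and DG-75 in orange. Points are single arrays in the order of their replicate numbers, and the line and bar are the mean and SD (n = 3). The 6 DG-75 arrays with AZD lie at 7.54 to 8.29 for HEXIM1, above the 6 DG-75 arrays without it, and all SU-DHL-4 arrays lie below all DG-75 arrays for BRD2.

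HEXIM1, whose protein blocks P-TEFb inside the 7SK particle, was higher in DG-75 wherever AZD was present. Its level on the DG-75 arrays was 7.18, 6.79 and 7.28 under DMSO and 7.07, 7.19 and 7.24 under Ento. It was 8.10, 7.63 and 7.83 under AZD and 8.29, 7.54 and 8.20 under Ento+AZD. The 6 arrays with AZD thus stood above the 6 without it, with no overlap, a pattern that 0.774% of all rows showed in this direction. In SU-DHL-4 the levels were 6.53, 6.25 and 6.88 under DMSO, 6.41, 6.46 and 6.64 under Ento, 6.32, 6.62 and 7.16 under AZD, and 6.16, 6.14 and 6.92 under Ento+AZD. There the 4 groups overlapped.

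The effect of AZD was measured as the mean of the differences AZD minus DMSO and Ento+AZD minus Ento, which sets 6 arrays with AZD against 6 without it in a line. This comparison within each line was added after the data had been seen, and its SE and interval come from a fit of all 24 arrays that pools the spread of both lines. In a fit of the 12 DG-75 arrays alone, the DG-75 value for HEXIM1 given next had an adjusted p of 0.00343. In DG-75 the AZD effect on HEXIM1 was 0.81 (SE 0.116, 95% confidence interval 0.56 to 1.05, adjusted p = 0.000363), a fold change of 1.75. HEXIM1 was the only one of the 9 genes to pass, against 10.3% of all rows and 1.71% in the higher direction. In SU-DHL-4 the AZD effect on HEXIM1 was 0.02 (95% confidence interval -0.22 to 0.27, adjusted p = 0.964), and 0 of the 9 genes passed against 3.83% of all rows by limma, also 0 of 9 at an unadjusted p under 0.05. The difference between the lines, SU-DHL-4 minus DG-75, was -0.78 (SE 0.165, adjusted p = 0.041). It was past the threshold for HEXIM1 alone among the 9 genes and for 0.434% of all rows. A fit without the replicate number gave the same difference with an adjusted p of 0.261, and 24 of the 27 fits with arrays left out also missed the threshold, so that passing the threshold depended on the model and on single arrays. The DG-75 effect passed in 14 of 15 fits with arrays left out and was 0.67 (adjusted p = 0.0607) without the arrays numbered 1.

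Against DMSO alone, HEXIM1 in DG-75 differed by 0.77 under AZD (SE 0.167, adjusted p = 0.0768) and rose by 0.93 under Ento+AZD (SE 0.167, adjusted p = 0.0226). Both comparisons use the same 3 DMSO arrays. The AZD value passed in 3 of 7 other settings and in 0 of 9 fits with arrays left out. The same-numbered differences were 0.92, 0.83 and 0.55 under AZD and 1.11, 0.74 and 0.93 under Ento+AZD, all in the higher direction. Ento+AZD against Ento, which uses no DMSO array but the same 3 Ento+AZD arrays, gave 0.84 (adjusted p = 0.0348). HEXIM1 was the single gene of the 9 that passed in the Ento+AZD comparisons, against 2.39% of all rows for Ento+AZD against DMSO and 1.66% for Ento+AZD against Ento. Adding Ento to AZD left HEXIM1 at a difference of 0.16 (SE 0.167, adjusted p = 1.0), and Ento alone gave 0.08 (SE 0.167, adjusted p = 1.0). Ento+AZD against DMSO passed in 1 of 9 fits with arrays left out, the fit without DG-75 Ento+AZD replicate 2, where the change was 1.08. Ento+AZD against Ento passed in none of 9 such fits, with adjusted p from 0.0552 to 0.519.

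In SU-DHL-4 HEXIM1 did not pass in these comparisons. It differed from DMSO by 0.15 under AZD (SE 0.166, adjusted p = 0.799) and by -0.15 under Ento+AZD (SE 0.166, adjusted p = 0.778), and the same-numbered differences had mixed signs. Averaged over both lines, the AZD effect on HEXIM1 was 0.41 (SE 0.0823, adjusted p = 0.0021) and was again the single passing value of the 9, beside 12.8% of all rows and 1.63% in the higher direction. This effect passed in 26 of 27 fits with arrays left out and was 0.36 (adjusted p = 0.0781) without the arrays numbered 3. AZD against DMSO over both lines, which shares arrays with it, gave 0.46 (adjusted p = 0.0289), and HEXIM1 was the single passing gene of the 9 beside 4.93% of all rows. That value passed in 4 of 15 fits with arrays left out, with adjusted p up to 0.218, and had an adjusted p of 0.149 without the replicate number. RNA was measured in bulk, so that RNA per cell and the makeup of the culture cannot be told apart. In DG-75 the mean level of the 6 B-cell markers was also higher with AZD, at 8.36 to 8.74 under DMSO and 8.50 to 8.84 under Ento against 8.93 to 9.07 under AZD and 8.98 to 9.43 under Ento+AZD. The mean of the 2 germinal centre markers was 9.92 to 10.09 under DMSO and 9.94 to 10.29 under Ento against 9.57 to 9.74 under AZD and 9.47 to 10.02 under Ento+AZD. The mean of the 3 plasma cell markers overlapped between the DMSO (4.76 to 5.00) and Ento+AZD (4.88 to 5.04) arrays, and 1 of them, XBP1, rose by 0.67 under Ento+AZD against DMSO in DG-75 and by 1.25 in SU-DHL-4, where HEXIM1 did not pass. Of the 6 B-cell markers, CD79B rose by 1.03 under Ento+AZD in DG-75. The mean of the epithelial markers was lower there (4.21 to 4.32, against 4.46 to 4.67 under DMSO). So was the mean of the T-cell markers (2.49 to 2.62, against 2.63 to 2.94). Under AZD alone both means overlapped with DMSO. The part of these shifts in the HEXIM1 result was not tested.

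**Figure D2:**
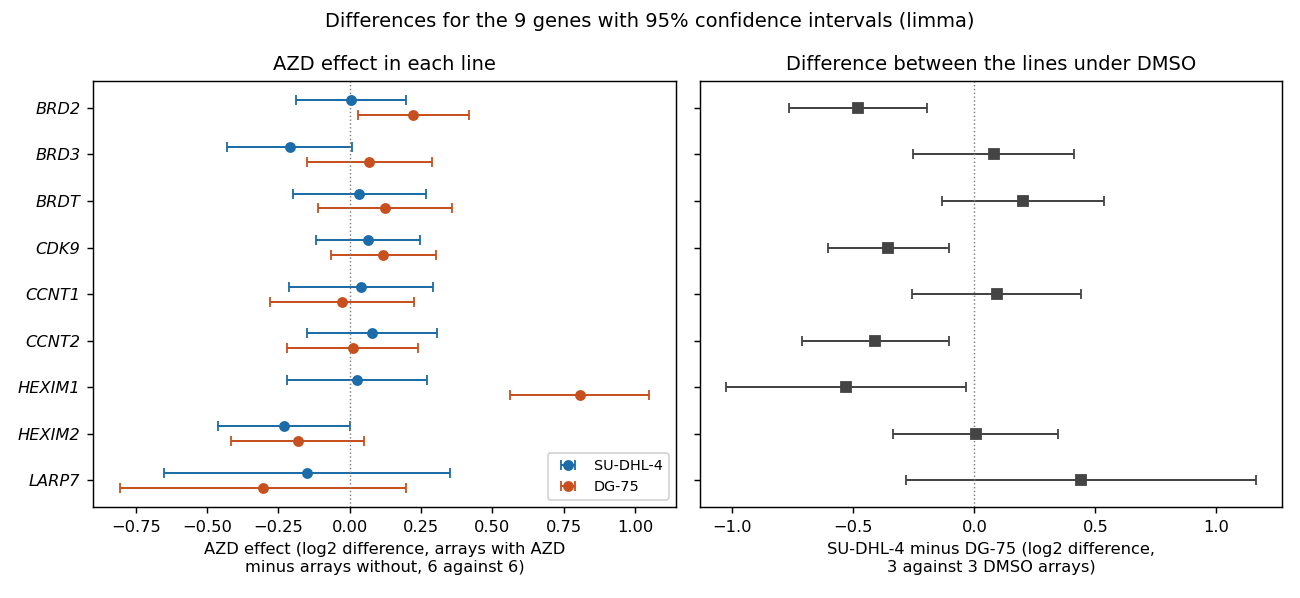
Differences for the 9 genes on the log2 scale (x axes) with unadjusted 95% confidence intervals from limma. Left, the AZD effect in SU-DHL-4 (blue) and DG-75 (orange), 6 arrays with AZD minus 6 without. Right, SU-DHL-4 minus DG-75 under DMSO, 3 arrays each. On the left HEXIM1 in DG-75 stands at 0.81, and the other values lie between -0.31 and 0.22. On the right BRD2 (-0.48) and CDK9 (-0.36) passed.

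HEXIM2, the paralog that can take the place of HEXIM1 in the particle, was lower under Ento+AZD when both lines were averaged. Its levels under DMSO were 5.57, 5.24 and 5.42 in SU-DHL-4, with 5.56, 5.09 and 5.56 in DG-75. Under Ento+AZD they were 5.11, 5.06 and 4.95 in SU-DHL-4, with 5.25, 5.03 and 4.70 in DG-75. Over both lines HEXIM2 fell by 0.39 under Ento+AZD (adjusted p = 0.0321), while HEXIM1 rose by 0.39 (adjusted p = 0.0427), so that 2 of the 9 genes passed beside 9% of all rows. All 6 same-numbered differences of HEXIM2 were negative. After subtraction of each array's median, HEXIM2 stood at -0.28 (adjusted p = 0.113), and after quantile normalization at -0.29 (adjusted p = 0.0901), since these scalings raised the median change of all rows in this comparison, by 0.11 for the subtraction. The HEXIM2 value passed in 4 of 15 fits with arrays left out, and it was -0.25 (adjusted p = 0.421) without the arrays numbered 3. The HEXIM1 value passed in 2 of 15 such fits, with adjusted p up to 0.333, and had an adjusted p of 0.186 in the fit without the replicate number. The AZD effect on HEXIM2 over both lines was -0.21 (SE 0.078, adjusted p = 0.0977).

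LARP7, the protein that binds and protects 7SK RNA, varied most between replicates. Its level under Ento+AZD in DG-75 was 7.38, 6.02 and 7.91, and under AZD in SU-DHL-4 it was 6.92, 7.88 and 7.69. The lowest value came from DG-75 Ento+AZD replicate 2, an array whose median of 5.03 lay inside the range of the DG-75 arrays. The mean of that array over all rows, 5.210, was the lowest of the DG-75 arrays. SU-DHL-4 AZD replicate 1, the source of the 6.92, had the lowest median (4.89) and mean (5.12) of all arrays. The AZD effect on LARP7 was -0.15 in SU-DHL-4, against -0.31 in DG-75, with 95% confidence intervals of -0.65 to 0.35 and -0.81 to 0.20. The SE of these values, 0.239, was the largest of the 9 genes.

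Among the BET genes, the targets of AZD themselves, BRD2 separated the lines. Its level lay between 9.10 and 9.60 on the 12 SU-DHL-4 arrays, with a median of 9.39. On the 12 DG-75 arrays it lay between 9.77 and 10.16, with a median of 9.92. BRD2 was the only one of the 9 genes whose lines did not overlap, as 9.19% of all rows did not. Under DMSO, BRD2 was 9.24, 9.34 and 9.44 in SU-DHL-4, against 9.89, 9.78 and 9.79 in DG-75, a difference of -0.48 (SE 0.138, adjusted p = 0.016). That difference missed the threshold in 5 of 9 fits with arrays left out, with adjusted p up to 0.222.

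Within DG-75, BRD2 also lay higher on every array with AZD. Its level was 10.10, 9.94 and 9.95 under AZD and 10.11, 9.98 and 10.16 under Ento+AZD, against 9.77 to 9.89 on the 6 arrays without AZD. BRD2 and HEXIM1 were the 2 of the 9 genes with this separation in DG-75, beside 0.774% of all rows, and 0 of the 9 genes showed it in SU-DHL-4, where 0.117% of all rows did in the higher direction and 0.938% in the lower. The AZD effect on BRD2 in DG-75 was 0.22 (SE 0.0921, 95% confidence interval 0.03 to 0.42) and did not pass on the deposited scale (adjusted p = 0.151). It passed after quantile normalization (0.36, adjusted p = 0.0041) and after subtraction of array medians (0.29, adjusted p = 0.0322), in 2 of 7 other settings, both of which also raised the median AZD effect of all rows, and in 0 of 15 fits with arrays left out. In SU-DHL-4 the AZD effect on BRD2 was 0.00 (95% confidence interval -0.19 to 0.20), and the difference between the lines was not past the threshold.

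BRD3 showed a shift in the other line, which did not pass. In SU-DHL-4 its level was 6.73, 7.01 and 6.81 under DMSO and 5.96, 6.46 and 6.68 under AZD. The AZD arrays lay below the DMSO arrays, as did 12.9% of all rows, and the difference was -0.48 (SE 0.155, unadjusted p = 0.00882, adjusted p = 0.255). Of the 9 genes it was the single one to separate in this comparison. The same-numbered differences were -0.77, -0.55 and -0.13. The value of 5.96 came from SU-DHL-4 AZD replicate 1, the array with the lowest median (4.89) and mean (5.12) of all arrays. Under Ento+AZD in the same line BRD3 was 6.47, 6.65 and 6.76, a difference of -0.22 (adjusted p = 0.59). In DG-75 BRD3 lay between 6.57 and 7.02 on all arrays, with an AZD effect of 0.07 (SE 0.104, adjusted p = 0.789).

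BRDT, the testis member of the family, had levels between 5.59 and 6.50. In DG-75 it was 6.50, 6.07 and 6.28 under AZD against 6.03, 5.84 and 5.88 under DMSO, a difference of 0.36 (SE 0.137, adjusted p = 0.256). The Ento+AZD arrays, with a mean of 5.92 ± 0.07 (SD, n = 3), did not share it. Levels as low as those of BRDT and HEXIM2 cannot be separated here into expressed and not expressed, because no detection value was used. For AZD against DMSO in DG-75, BRD2, BRDT, HEXIM1 and CDK9 had AZD arrays above all DMSO arrays, 4 of the 9 genes beside 4.5% of all rows in that direction, and none of the 9 passed (0.293% of all rows passed, and 2 of the 9 had an unadjusted p under 0.05).

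CDK9, the kinase of P-TEFb, was the lower in SU-DHL-4. Under DMSO it was 8.55, 8.62 and 8.54 in SU-DHL-4, against 8.99, 8.97 and 8.82 in DG-75, a difference of -0.36 (SE 0.12, adjusted p = 0.0426). BRD2 and CDK9 were the 2 of the 9 genes that passed between the lines, whereas 17.6% of all rows did. The CDK9 difference passed in 1 of 9 fits with arrays left out and did not pass after quantile normalization (-0.28, adjusted p = 0.0991). CCNT2 (-0.41, adjusted p = 0.0581, passing in 3 of 6 other settings) and HEXIM1 (-0.53, adjusted p = 0.145) had negative differences that did not pass.

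Under Ento+AZD, CDK9 lay above the DMSO arrays in both lines. Its level was 8.92, 8.83 and 8.81 in SU-DHL-4, with 9.20, 9.28 and 9.03 in DG-75. CDK9 and HEXIM2, the latter lower, were in SU-DHL-4 the 2 of the 9 genes whose Ento+AZD and DMSO arrays did not overlap, beside 20.8% of all rows, and in DG-75 BRD2, HEXIM1 and CDK9 were the 3 that lay higher, beside 4.79%. All 6 same-numbered differences were positive, and the difference over both lines was 0.26 (SE 0.0875, adjusted p = 0.0741). It passed after quantile normalization (0.38, adjusted p = 0.00429) and after subtraction of array medians (0.37, adjusted p = 0.00637), scalings that also raised the median change of all rows in this comparison. In all it passed in 4 of 6 other settings, both scalings included, and in 0 of 15 fits with arrays left out. In SU-DHL-4 the Ento arrays, at 8.94, 8.88 and 8.75, also lay above the DMSO arrays, at a difference of 0.28 that did not pass (adjusted p = 0.623). CDK9 and BRD3, which lay lower, were the 2 of the 9 genes without overlap there, beside 13.4% of all rows.

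CCNT1 and CCNT2 encode the cyclin partners of CDK9, and neither passed in any comparison as fitted on the deposited scale. CCNT1 had the narrowest range of group means of the 9 genes. They lay between 8.78 and 8.99, and each gap between groups that followed each other in order was smaller than the larger of their SDs. The AZD effect on CCNT1 was 0.04 in SU-DHL-4, against -0.03 in DG-75, with 95% confidence intervals of -0.21 to 0.29 and -0.28 to 0.23. CCNT2 group means lay between 8.49 and 8.67 in SU-DHL-4, but between 8.92 and 9.01 in DG-75, and the gap between the lines, 0.25, was the only one in the order that exceeded the SDs. The AZD effect on CCNT2 was 0.08 and 0.01, with 95% confidence intervals of -0.15 to 0.31 and -0.22 to 0.24. A change of the size seen for HEXIM1 in DG-75 lies outside these 4 intervals.

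For HEXIM1 the order of the group means ran from DG-75 Ento+AZD (8.01 ± 0.41) and DG-75 AZD (7.85 ± 0.24; SD, n = 3) over DG-75 Ento (7.17 ± 0.09) and DG-75 DMSO (7.08 ± 0.26) to the SU-DHL-4 groups (6.41 to 6.70). Only the gap of 0.68 between DG-75 AZD and DG-75 Ento exceeded the SDs of the neighbours. For BRD2 there were gaps of that kind between DG-75 AZD and DG-75 DMSO (0.17) and between the lines (0.42). CDK9 and BRDT each had 1 such gap, of 0.12 and 0.08, and in BRD3, HEXIM2, CCNT1 and LARP7 no gap exceeded the SDs.

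Ento exposure moved none of the 9 genes past the threshold. Averaged over both lines, the Ento effect lay between -0.18 for HEXIM2 and 0.17 for CDK9. The lowest adjusted p was 0.364, 0 of the 9 genes passed by limma beside 0.399% of all rows, and 2 of the 9 had an unadjusted p under 0.05. The departure of Ento+AZD from the sum of the single agents also passed for 0 of the 9 genes, with values from -0.09 to 0.31, none with an unadjusted p under 0.05, and 0% of all rows passed. SYK, the target of Ento, had an Ento effect of 0.27 over both lines that did not pass (adjusted p = 0.103), with means of 8.97 ± 0.27 (SD, n = 3) under DMSO and 9.40 ± 0.16 under Ento in SU-DHL-4, and of 8.72 ± 0.18 and 8.80 ± 0.19 in DG-75. Under Ento+AZD, SYK rose by 0.36 over both lines (adjusted p = 0.0157), where 9% of all rows passed.

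The wider elongation and chromatin reading machinery was read from 77 further genes in 7 lists, with ZMYND8 counted in both the bromodomain and the marker list, taken from textbook knowledge of these complexes. For the AZD effect over both lines, 2 of the 77 genes were higher and 17 lower, beside 418 higher and 2867 lower of all 25575 rows, the latter 11.2% of them. The counts of falling genes in the single lists below are to be read against that share. The median change was -0.14 for the 77 genes, 0.04 for the 9 genes and -0.04 for all rows. The balance depended on the scaling. After quantile normalization 7 of the 77 were higher and 6 lower, beside 1379 and 1682 of all rows. After subtraction of array medians 3 were higher and 10 lower, beside 867 and 1889. Of the 9 genes, HEXIM1 passed under each scaling, and BRD2 (0.24, adjusted p = 0.0053) and CDK9 (0.22, adjusted p = 0.0136) joined it in the higher direction after quantile normalization.

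Other components tied to the 7SK particle had a median AZD effect of -0.22. Of 10 genes 4 fell and none rose, among them HNRNPA2B1 (-0.36, adjusted p = 0.00142) and HNRNPR (-0.36, adjusted p = 0.00218), which bind 7SK RNA outside the inhibitory particle, and the phosphatase gene PPM1G (-0.25, adjusted p = 0.0118). Both HNRNP genes passed under each scaling, whereas PPM1G was at an adjusted p of 0.151 after quantile normalization. Pausing factors had a median of -0.22, and 3 of 6 fell. These were the NELF subunits NELFE (-0.33, adjusted p = 0.00611), NELFB (-0.30, adjusted p = 0.00716) and NELFCD (-0.27, adjusted p = 0.0344), of which only NELFE passed under each scaling.

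In the super elongation complex, the assembly that carries P-TEFb to many genes, 1 of 10 fell, MLLT1 (-0.23, adjusted p = 0.0288). The median was -0.14, and the list held 0 falling genes and 1 rising gene after quantile normalization. AFF3, a scaffold of this complex, was called higher under Ento+AZD in SU-DHL-4 (1.11, adjusted p = 0.00715). Its mean was 7.84 ± 0.36 (SD, n = 3) under DMSO, 8.91 ± 0.37 under Ento, 7.74 ± 0.70 under AZD and 8.95 ± 0.44 under Ento+AZD. In the PAF1 complex and SPT6, LEO1 fell (-0.30, adjusted p = 0.00937), 1 of 6, with a median of -0.01. Among other transcription kinases and cyclins 1 of 8 fell, CDK7 (-0.30, adjusted p = 0.0113), with a median of -0.19. LEO1 and CDK7 were past the threshold after subtraction of array medians and short of it after quantile normalization, with adjusted p of 0.0908 and 0.0805.

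Of 35 other bromodomain genes 1 rose and 7 fell, with a median of -0.10. ATAD2, a bromodomain ATPase linked to proliferation, had the largest AZD effect of all the listed genes (-0.82, SE 0.112, adjusted p = 8.5e-05) and passed under each scaling. Its mean in DG-75 was 9.13 ± 0.14 (SD, n = 3) under DMSO and 8.15 ± 0.31 under Ento+AZD, and in SU-DHL-4 it was 8.30 ± 0.47 against 7.17 ± 0.65. The chromatin remodeler genes SMARCA4 (-0.30, adjusted p = 0.0023) and BAZ1B (-0.30, adjusted p = 0.00608) fell under each scaling too, and BAZ2B rose under each (0.33, adjusted p = 0.0391 as deposited). Of 3 genes other than HEXIM1 that are used as markers of BET inhibitor response, ZCCHC24 rose (0.31, adjusted p = 0.0111), ZMYND8 fell (-0.27, adjusted p = 0.00963) and SERPINI1 stood at -0.07 (adjusted p = 0.79). ZMYND8, a bromodomain gene already among the 7 that fell, did not pass under the other scalings. For AZD against DMSO it stood at -0.53 in SU-DHL-4 and at 0.02 in DG-75. The line difference in its AZD effect did not pass.

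**Figure D3:**
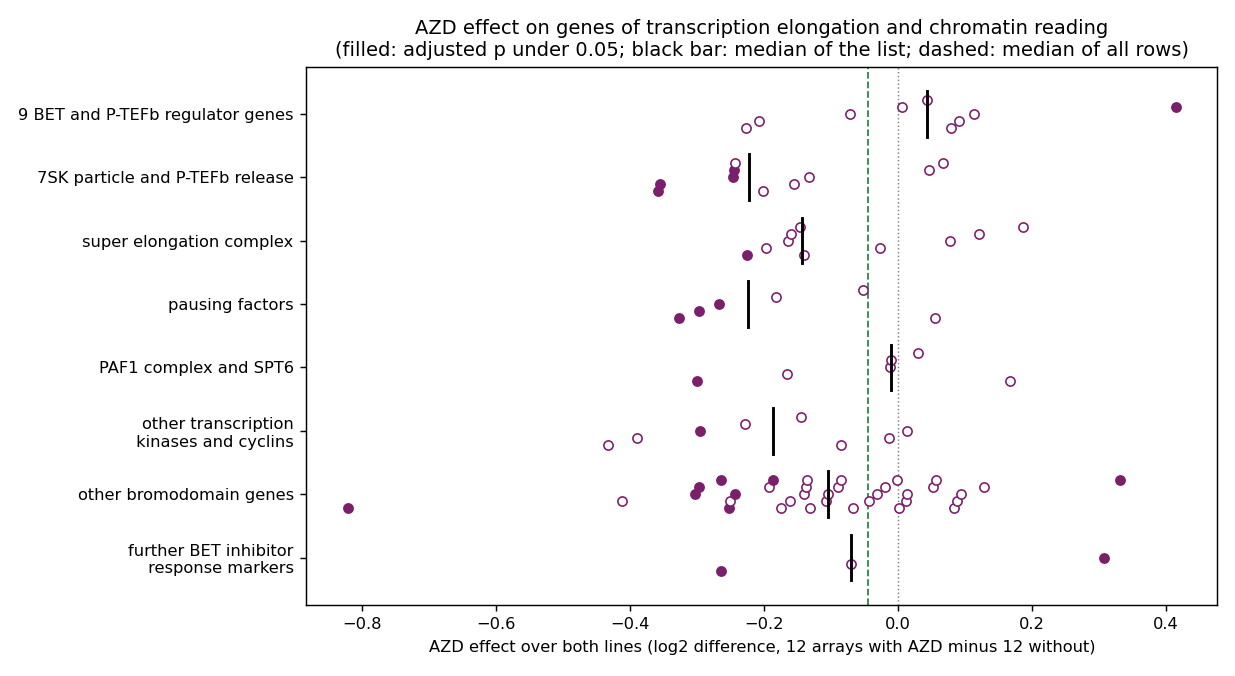
AZD effect over both lines (x axis, log2 difference, 12 arrays with AZD minus 12 without, deposited scale) for the 9 genes and for 7 lists of further genes (y axis). Each point is a gene, filled where the adjusted p was under 0.05, black bars are list medians and the dashed line is the median of all rows, -0.04. HEXIM1 stands at 0.41 on the right, and ATAD2 at -0.82 on the left.

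Relative to DG-75, 7 of the 77 listed genes were higher and 14 lower in SU-DHL-4 under DMSO, beside 7.78% and 9.84% of all rows, and 9 of them were called, against 0 of the 9 genes and 7.2% of all rows. MLLT3, which like MLLT1 belongs to the super elongation complex, was at 5.35 ± 0.14 (SD, n = 3) in SU-DHL-4, against 9.47 ± 0.23 in DG-75 (-4.12, adjusted p = 9.85e-15), and AFF1 was lower by 2.09 (adjusted p = 1.22e-07). SP140 was higher in SU-DHL-4 by 2.35 (adjusted p = 1.33e-05), as were SERPINI1 (1.65), ELL3 (1.11) and EAF2 (1.00). CTR9 (-1.07), MNAT1 (-1.06) and BAZ2B (-1.03) were lower.

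Likeness of pattern was described by Pearson's r over the 24 arrays, after the mean of the 4 arrays of the same line and replicate number had been removed. It compared each gene with 12786 rows above the table median. The points share labelled groups and array-wide shifts, so r is given without a p. HEXIM1 was most like TXNIP (r = 0.87), COMMD6 (0.86) and SNORD117 (0.85), and 19 rows exceeded 0.8. TXNIP, which encodes an inhibitor of thioredoxin, had an AZD effect of 1.07 in DG-75 and of 0.08 in SU-DHL-4. For COMMD6 the values were 0.40 and 0.06, and for SNORD117 they were 0.44 and -0.01. These genes were picked for their likeness to HEXIM1 on the same arrays, so their effects are a description and carry no test.

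BRD2 was most like CCNL2 (0.88), RBM5 (0.82) and PILRB (0.81), and its nearest of the other 8 genes was HEXIM1 (0.60). CDK9 was most like TNKS2 (0.87), SDHAF2 (0.87) and TBCB (0.87). CCNT1 was closest to PPIL2 (0.92), STK4 (0.90) and TSPAN14 (0.88), CCNT2 to ARIH1 (0.90), SLC35F5 (0.88) and LNPEP (0.87), and LARP7 to NFYC (0.95), NVL (0.94) and GTPBP10 (0.94). LARP7 and CCNT1 correlated at 0.78. For LARP7, 561 rows exceeded 0.8, against 53 for CCNT1, 41 for CCNT2 and 5 for BRD2, so that its pattern over arrays was shared by many more transcripts. BRD3 (ZBED1, AAMDC and PRF1), BRDT (LRG1, COL8A1 and PRSS27) and HEXIM2 (KIAA2013, ADGRL1 and TUBA8) had at most 1 row above 0.8.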

How the data were processed

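RNA of 24 samples was hybridised to Clariom D arrays. Per the labels and the study's methods, the authors made the deposited log2 values with limma and RMA (robust multi-array average) and assigned probes to genes with affycoretools. RMA gives all arrays a common distribution of probe intensities, but the medians of the summarised values still differed between arrays. Build and tool versions are not given in the sources used here. The table had 25575 rows and 0 unused columns, and no arrays were identical. Depth does not apply to arrays, and their number limits the precision.

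Using limma 3.58.1 in R 4.3.3, with moderated statistics, the 12 arrays of a line were fitted together with the replicate number as the batch term, an assumption, since the study's methods name a batch without saying what it was, and comparisons over lines on all 24 arrays with replicate number within line. The AZD and Ento effects within a line also come from the fit of 24 arrays, so their SEs and intervals pool the spread of both lines. The lines were compared under DMSO without that term. Thresholds, an adjusted p under 0.05 and a fold change above 2, follow the study. The code was tested on simulated data.

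Genes named beside the 9 were SYK, listed genes that were called or had one of the 3 smallest p of their list in the AZD effect, and the 3 most alike genes of each. MS4A1, CD79B, CD22, XBP1 and other markers served as a check of the cell type. The genes, lists and tests were chosen with earlier results of these data known. Alternatives were another block, filter, scaling, variance prior, fold minimum or row choice, and arrays left out.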

Additional observations from a re-analysis of the deposited data

Results flagged for a closer look

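The effect of AZD on HEXIM1 differed between the lines by -0.78 on the log2 scale (SU-DHL-4 minus DG-75, SE 0.165, adjusted p = 0.041 by limma). It was 0.02 in SU-DHL-4, against 0.81 in DG-75, and the result is listed because the difference itself was tested and passed. HEXIM1 lay higher with AZD in 6 of 6 same-numbered differences in DG-75 and in 3 of 6 in SU-DHL-4. For Ento+AZD against DMSO alone, the difference between the lines was -1.07 (adjusted p = 0.134) and did not pass. Without the replicate number in the model the first difference had an adjusted p of 0.261. Groups of 3 arrays were too small for a search for single deviating arrays.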

How the results depend on the processing

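Of 10 passing values of the 9 genes, each was lost in at least 1 fit with arrays left out, 9 of the 206 other values passed under some alternative, and 0 reversed direction. The number of genes called, 0 in every comparison, became 1 for Ento+AZD against DMSO in DG-75 after quantile normalization and after subtraction of array medians, and 1 in DG-75 for the combination against Ento after quantile normalization, each time HEXIM1. With arrays left out it ranged from 0 to 1 for Ento+AZD against DMSO in DG-75 and was 0 for the other comparisons. With no fold change minimum it was 1 for these 2 comparisons, for AZD against DMSO over both lines, for the AZD effect over both lines, for the line difference in the AZD effect and for the AZD effect in DG-75, and 2 for Ento+AZD against DMSO over both lines and for SU-DHL-4 against DG-75 under DMSO.

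The fits given above use the replicate number as the batch. The data show only in part that the numbers pair the arrays in SU-DHL-4, and they do not show it in DG-75. The deviations of same-numbered arrays correlated at -0.11 to 0.39 in SU-DHL-4, with 12 of 18 pairs over 0.1, and at -0.35 to 0.34 in DG-75, with 7 of 18. In the fit without the replicate block HEXIM1 kept its AZD effect over both lines (adjusted p = 0.0249), its AZD effect in DG-75 (0.00516) and Ento+AZD against DMSO in DG-75 (0.0325). It missed the threshold in DG-75 for the combination against Ento (0.0541), AZD against DMSO over both lines (0.149), Ento+AZD against DMSO over both lines (0.186) and the line difference (0.261). The count of genes called was 0 with and without the replicate block. In SU-DHL-4, the median change of all rows rose by 0.12 (Ento), 0.12 (AZD) and 0.13 (the combination) when array medians were subtracted. The alternatives for the AZD effect within a line and for the lists were chosen after seeing the data. With 3 arrays a group, a value that did not pass is compatible with any change inside its interval, where one is given.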
